A study of Mus musculus with 6 samples.

Results

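Chemokine ligands and chemokine receptors were examined in liver tumors with and without Prmt3 in hepatocytes. Members were all rows of the gene table whose symbol begins with Ccl, Cxcl, Cx3cl, Xcl, Ccr, Cxcr, Cx3cr, Xcr or Ackr followed by a number, which gave 69 of 34745 rows with 64 distinct symbols, 46 of them ligand rows and 23 receptor rows. RNA-seq was performed on 6 liver tumors, 3 from Prmt3f/f mice (7, 66 and 71, labelled WT) and 3 from Prmt3LKO mice (92, 93 and 94, labelled KO). Prmt3f/f mice carry loxP-flanked Prmt3 alleles and no Cre, and Prmt3LKO mice carry the same alleles with Cre under the albumin promoter, which is active in hepatocytes and their progenitors, so Prmt3 in immune, endothelial and stellate cells was not targeted. Both groups received diethylnitrosamine (DEN, 25 mg/kg) into the peritoneum at 2 weeks of age and then repeated 10% CCl4 in oil (0.5 ml/kg) from 6 weeks, and tumors were taken at 26 weeks. The labels do not state whether the tumors of a group came from separate animals, so p-values measure only the spread between these tumors.

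Chemokines are small secreted or membrane-tethered proteins that guide leukocytes along a gradient, and they are grouped as CC, CXC, CX3C and XC by the spacing of their first cysteines. Their receptors are G protein-coupled and sit mainly on leukocytes, while the atypical receptors of the Ackr group bind chemokines without the usual G protein signal and can scavenge or transport them. In the liver, ligands are made by hepatocytes, endothelial cells and stellate cells as well as by resident macrophages and recruited leukocytes, whereas most signalling receptors are carried by the incoming leukocytes.

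Each library held between 18440244 and 27976598 counts assigned to genes. Before scaling, 3 counts in a library corresponded to 0.107 to 0.163 per 1000000 counts, the level under which presence was not read. Levels are given as CPM (counts per 1000000 counts of the scaled library). Prmt3 itself was measured at 6.6, 8.49 and 10.2 CPM in Prmt3f/f tumors 7, 66 and 71 and at 2.80, 2.03 and 3.82 CPM in Prmt3LKO tumors 92, 93 and 94, lower in every Prmt3LKO tumor (log2 fold change -1.55 ± 0.29 SE). Its p adjusted over all genes in edgeR's quasi-likelihood test was 0.592, so the targeted gene itself was not called. Of the 69 members, 14 had no count in any tumor, 14 had counts too low to test, and 41 were tested (25 ligands and 16 receptors). The filter asked for 0.472 CPM or more, before scaling, in at least 3 tumors. Of the tested members 26 reached that level in all 3 Prmt3LKO tumors and 15 in fewer than 3, among them Ccl22, Xcr1 and Ccr9. Only 3 reached it in fewer than 3 Prmt3f/f tumors, so more members depended on their Prmt3f/f level to be tested. Of the 15, 2 members, Cxcl2 and Xcl1, reached it in every Prmt3f/f tumor and in no Prmt3LKO tumor. A difference in these 2 was a condition of their being tested.

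The sequence upstream of 5 ligands is shown because they include the neighbouring pairs Cxcl9 and Cxcl10, and Cxcl1 and Cxcl2, on chromosome 5, and Ccl9, the ligand with the highest mean FPKM over the 6 tumors. The 250 bases before the annotated start site are given 5′ to 3′ on the gene's strand, from RefSeq on GRCm38.p6, at chr5:92328080-92328329 (minus strand) for Cxcl9, chr5:92348890-92349139 (minus) for Cxcl10, chr5:90890995-90891244 (plus) for Cxcl1, chr5:90903649-90903898 (plus) for Cxcl2 and chr11:83578637-83578886 (minus) for Ccl9. Capitals mark matches to the binding motif of NF-kB, the factor that carries inflammatory cytokine signals, or to the interferon-stimulated response element (ISRE, which is GAAA, any 2 bases and GAAA again), on either strand.
Cxcl9: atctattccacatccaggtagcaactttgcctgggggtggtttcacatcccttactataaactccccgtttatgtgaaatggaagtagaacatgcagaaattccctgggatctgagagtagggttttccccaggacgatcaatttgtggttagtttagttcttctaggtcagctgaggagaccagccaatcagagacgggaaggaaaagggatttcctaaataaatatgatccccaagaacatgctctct
Cxcl10: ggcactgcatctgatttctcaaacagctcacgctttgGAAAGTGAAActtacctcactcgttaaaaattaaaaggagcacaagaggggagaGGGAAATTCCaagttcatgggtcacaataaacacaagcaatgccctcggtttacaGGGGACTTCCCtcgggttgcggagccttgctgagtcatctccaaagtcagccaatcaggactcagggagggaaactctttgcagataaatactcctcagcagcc
Cxcl1: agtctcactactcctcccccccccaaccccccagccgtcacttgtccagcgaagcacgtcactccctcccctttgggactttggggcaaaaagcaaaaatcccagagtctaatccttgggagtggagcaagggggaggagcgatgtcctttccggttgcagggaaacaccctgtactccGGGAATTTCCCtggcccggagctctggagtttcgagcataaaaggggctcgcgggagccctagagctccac
Cxcl2: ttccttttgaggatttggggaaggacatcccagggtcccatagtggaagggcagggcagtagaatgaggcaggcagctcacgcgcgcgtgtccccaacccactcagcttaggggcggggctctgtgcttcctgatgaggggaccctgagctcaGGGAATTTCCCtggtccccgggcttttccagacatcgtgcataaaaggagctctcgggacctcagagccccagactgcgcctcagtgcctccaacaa
Ccl9: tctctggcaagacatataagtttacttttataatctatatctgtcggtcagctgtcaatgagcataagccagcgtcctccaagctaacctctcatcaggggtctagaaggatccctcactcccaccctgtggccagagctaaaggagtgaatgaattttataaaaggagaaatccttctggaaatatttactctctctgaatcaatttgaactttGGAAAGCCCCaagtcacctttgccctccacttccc

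In the Cxcl10 window the ISRE match GAAAGTGAAA began 213 bases before the start site, 1 NF-kB match, GGGAAATTCC, began at 159 bases, and 2 overlapping NF-kB matches began at 104 and 103 bases. Cxcl1 and Cxcl2 carried the same run, GGGAATTTCCC, which holds 2 overlapping matches to the NF-kB motif. Ccl9 carried 1 match at 35 bases and Cxcl9 none. Promoter windows of 300 bases, which add 50 bases after the start site, were found by symbol for 30 of the 41 tested members. The NF-kB motif was present in 9 of these 30 (30%) and in 12.4% of 10255 tested genes with a window, the ISRE in 2 (6.67%) and in 3.96% of tested genes, and the interferon-gamma activated site (GAS, TTCNNNGAA) in 1 (3.33%) and in 8.64% of tested genes. Of the 10 members with a window whose level was lower in every Prmt3LKO tumor, 2 carried the NF-kB motif, Cxcl2 and Cxcl10. A match describes letters in the window and not a site in use.

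Most tested chemokine genes had lower values in Prmt3LKO tumors, but no member passed edgeR's quasi-likelihood test after adjustment over all genes. The log2 fold change was below 0 for 36 of the 41 tested members and above 0 for 5, with a median of -0.70 where the median of all 13892 genes tested was 0.00. At an unadjusted p under 0.05 with at least a 2-fold difference, 9 members were lower in Prmt3LKO tumors, namely Ccl2, Cxcl9, Cxcl10, Ccr2, Ccl6, Ccl22, Xcr1, Cxcl2 and Xcl1, and 0 were higher, where 1.77% of all genes tested were lower and 0.317% higher. Without Prmt3f/f tumor 7 the count was 5, and 1 member, Ackr1, was then higher, with no share over all genes counted for that fit. Ackr1 had passed the filter of the main fit through its Prmt3LKO level. In all, 12 of 41 members lay lower in every Prmt3LKO tumor than in every Prmt3f/f tumor, against 6.6% of all genes, and 1, Ackr2, lay higher in every Prmt3LKO tumor, against 5.56%. After Benjamini-Hochberg adjustment over all genes in edgeR's quasi-likelihood test 0 members and 0% of genes were called, the smallest adjusted p of a member being 0.592. With DESeq2, which called 0.374% of all genes, and with edgeR's exact test, which called 0.288%, 1 member, Ccl2, was called. Because the filter could admit a gene through 1 group alone, the count was also made over genes with a mean of at least 1 CPM over the 6 tumors, a choice that does not depend on direction. Of 29 members that passed, 6 were then lower, against 1.5% of such genes, with a median log2 fold change of -0.57. Ccl22, among the 6, was under 1 CPM in every Prmt3LKO tumor and passed through its Prmt3f/f level. The counts of signs and of members without overlap were not repeated over genes with that mean.

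**Figure D1:**
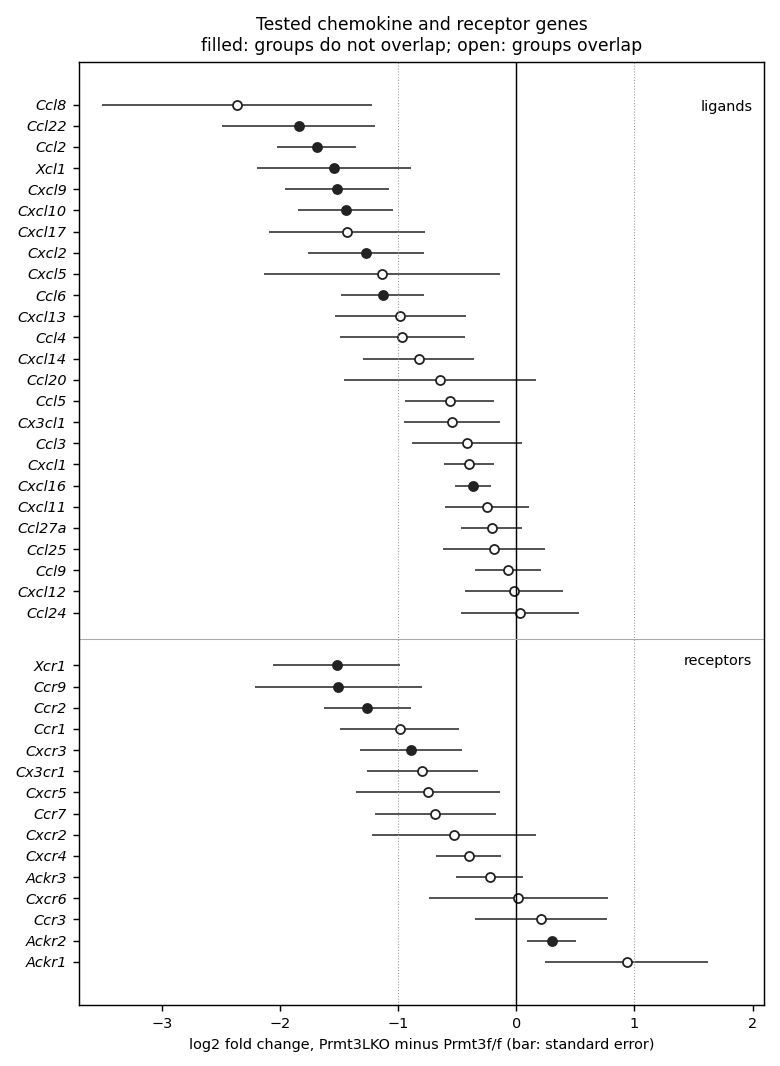
Log2 fold change of 40 of the 41 tested members, Prmt3LKO minus Prmt3f/f, with its standard error as a bar, ligands above and receptors below and each sorted by value; dotted lines mark 2-fold. Filled points are members whose groups do not overlap: 12 lie left of 0 and 1, Ackr2, lies right of it.

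Of the 3 CXCR3 ligands, 2 stood among the clearest differences. These chemokines are induced by interferons and attract activated T cells and natural killer cells. Cxcl9 (chr5:92321347-92328079, GRCm38) was at 92, 113 and 185 CPM in Prmt3f/f tumors 7, 66 and 71 and at 27.7, 77 and 31.3 CPM in Prmt3LKO tumors 92, 93 and 94. Prmt3LKO tumor 93 came closest to the Prmt3f/f tumors and the groups did not overlap (2.87-fold lower, log2 fold change -1.52 ± 0.44 SE; edgeR adjusted p = 0.606). Cxcl10 (chr5:92346638-92348889) was at 24.9, 17.0 and 28.6 CPM in Prmt3f/f tumors and at 8.34, 13.3 and 4.17 CPM in Prmt3LKO tumors. It too was lower in every Prmt3LKO tumor, highest among them again in tumor 93 (2.72-fold lower, log2 fold change -1.45 ± 0.40 SE; edgeR adjusted p = 0.606). The third ligand, Cxcl11, whose gene lies beside them at chr5:92359544-92365485, was at 7.02, 6.11 and 3.73 CPM in Prmt3f/f tumors and at 5.03, 6.27 and 2.81 CPM in Prmt3LKO tumors. Its groups overlapped (-0.25 ± 0.36 SE), and 39.1% of the 100-base windows of its transcripts also occur in transcripts of Gm2673, so its count is uncertain, also because the use of strand is not stated. The receptor Cxcr3, carried by activated T cells and natural killer cells, was at 3.19, 2.1 and 2.11 CPM in Prmt3f/f tumors and at 0.686, 1.31 and 1.96 CPM in Prmt3LKO tumors. The groups did not overlap, although Prmt3LKO tumor 94 lay just under Prmt3f/f tumor 66 (-0.89 ± 0.43 SE, -0.59 without Prmt3LKO tumor 92; edgeR adjusted p = 0.775).

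Ccl2 had the smallest p of all members. CCL2 draws Ccr2-bearing monocytes from blood into inflamed liver, and both genes were lower in every Prmt3LKO tumor. Ccl2 (chr11:82035571-82037453) was at 10.7, 5.51 and 5.63 CPM in Prmt3f/f tumors and at 2.74, 1.80 and 2.21 CPM in Prmt3LKO tumors. Prmt3f/f tumor 7 was the highest, and every Prmt3LKO tumor was at or under 2.74 CPM (3.23-fold lower, log2 fold change -1.69 ± 0.33 SE; edgeR quasi-likelihood adjusted p = 0.592). DESeq2 gave Ccl2 an adjusted p of 0.0063, and over 13 alternatives the adjusted p lay between 0.0063 and 0.996, while the log2 fold change stayed between -1.85 and -1.12. Ccr2 (chr9:124101950-124113557) was at 14.4, 8.02 and 6.12 CPM in Prmt3f/f tumors and at 3.49, 3.07 and 5.33 CPM in Prmt3LKO tumors. Prmt3f/f tumor 7 was again the highest, and the groups did not overlap (-1.26 ± 0.37 SE, -0.84 without that tumor; edgeR adjusted p = 0.606). Ccl8, counted among the monocyte-attracting ligands although in mice it also acts on Ccr8, was at 5.49, 1.26 and 1.65 CPM in Prmt3f/f tumors and at 0.114, 1.44 and 0 CPM in Prmt3LKO tumors. Prmt3LKO tumor 93 lay between Prmt3f/f tumors 66 and 71, and the fitted difference was wide (-2.37 ± 1.14 SE, -5.55 without Prmt3LKO tumor 93 and -1.45 without Prmt3f/f tumor 7). The 2 further CCR2 ligands of the list, Ccl7 and Ccl12, were too low to test.

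**Figure D2:**
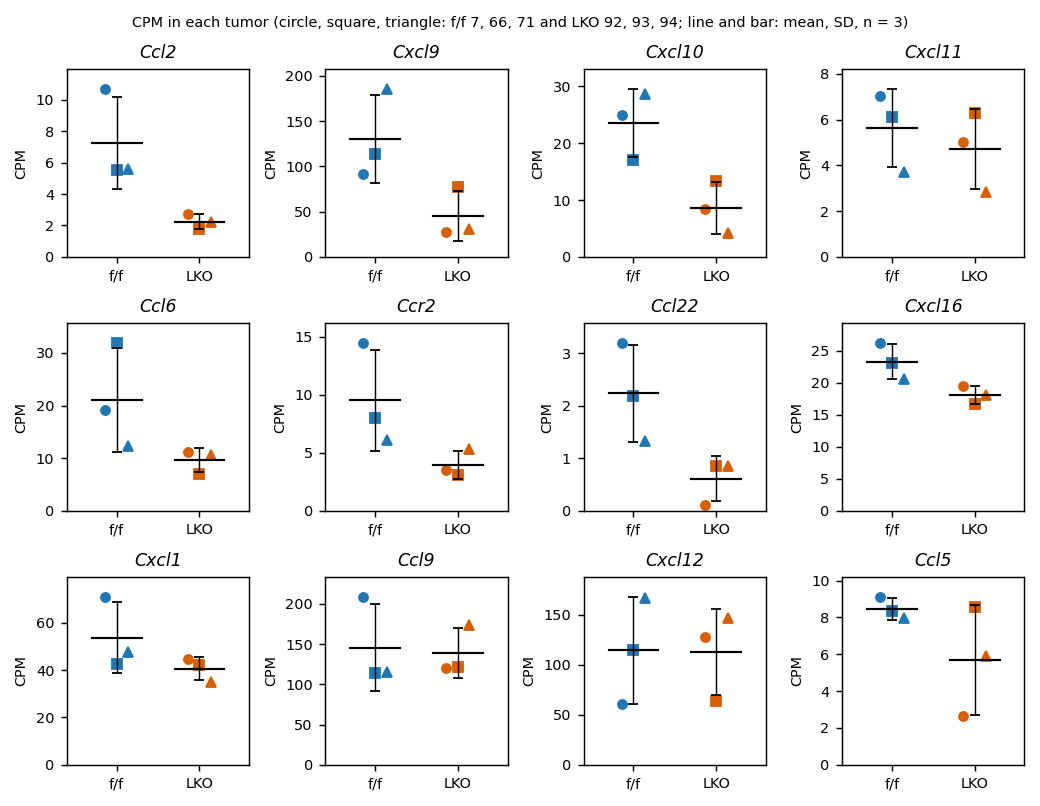
CPM of 12 members in each tumor, with the y axis from 0; circles, squares and triangles are tumors 7, 66 and 71 in blue and 92, 93 and 94 in orange, with the mean as a line and the SD as a bar (n = 3). Ccl2, Cxcl9, Cxcl10, Ccl6, Ccr2, Ccl22 and Cxcl16 are lower in every Prmt3LKO tumor, and Cxcl11, Cxcl1, Ccl9, Cxcl12 and Ccl5 overlap.

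The CC ligands that draw monocytes, eosinophils and T cells did not share 1 pattern. Ccl6 (chr11:83587882-83593087), made by macrophages and other myeloid cells, was at 19.2, 31.8 and 12.3 CPM in Prmt3f/f tumors and at 11.3, 6.99 and 10.6 CPM in Prmt3LKO tumors. Its groups came close to each other and did not overlap (-1.13 ± 0.35 SE, -0.71 without Prmt3f/f tumor 66; edgeR adjusted p = 0.64). Its neighbour Ccl9 (chr11:83572919-83578636), a myeloid-cell chemokine that acts on Ccr1, was at 208, 114 and 115 CPM in Prmt3f/f tumors and at 120, 122 and 174 CPM in Prmt3LKO tumors. Tumors of both groups were interleaved, and the fold change was near 0 and turned positive without Prmt3f/f tumor 7 (-0.07 ± 0.28 SE, 0.27 without it). Ccl5, made by T cells and natural killer cells, was at 9.09, 8.35 and 7.95 CPM in Prmt3f/f tumors and at 2.63, 8.57 and 5.88 CPM in Prmt3LKO tumors. Prmt3LKO tumor 93 was within the Prmt3f/f range and tumor 92 far under it (-0.56 ± 0.38 SE). Ccl3 (-0.42 ± 0.46 SE), Ccl4 (-0.96 ± 0.53 SE) and Ccl24 (0.03 ± 0.50 SE) had overlapping groups and low levels. Of their receptors, Ccr1 (-0.99 ± 0.50 SE) had a lower mean in Prmt3LKO tumors with overlap, and Ccr3 was at 0.21 ± 0.56 SE, below 0 with limma-voom.

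The CXCR2 ligands, which attract neutrophils, were headed by Cxcl1, at a mean of 16.8 FPKM against 0.187 for Cxcl5 and 0.129 for Cxcl2. Cxcl1 (chr5:90891241-90893115), which hepatocytes and stromal cells make on inflammatory signals, was at 70.8, 42.7 and 47.8 CPM in Prmt3f/f tumors and at 44.9, 42.0 and 35.2 CPM in Prmt3LKO tumors. Prmt3LKO tumor 92 lay above Prmt3f/f tumor 66, so the groups overlapped (-0.40 ± 0.21 SE). Cxcl2 (chr5:90903871-90905938), made mainly by myeloid cells, was at 0.646, 1.49 and 0.703 CPM in Prmt3f/f tumors and at 0.400, 0.361 and 0.402 CPM in Prmt3LKO tumors, lower in each of the latter (-1.27 ± 0.49 SE, -0.79 without Prmt3f/f tumor 66). The upstream windows of Cxcl1 and Cxcl2 shown above hold the same NF-kB run, and the difference between their fold changes was not tested. Cxcl5 was at or under 1.02 CPM in every tumor with overlap (-1.14 ± 1.0 SE). Cxcr2 itself, the neutrophil receptor, was at 2.31, 0.513 and 0.563 CPM in Prmt3f/f tumors and at 0.686, 1.17 and 0.452 CPM in Prmt3LKO tumors. Its sign rested on Prmt3f/f tumor 7 (-0.53 ± 0.69 SE, 0.51 without that tumor).

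A further 3 genes tied to dendritic cells were lower in every Prmt3LKO tumor. Xcl1, a ligand from T cells and natural killer cells, was at 1.85, 0.606 and 0.492 CPM in Prmt3f/f tumors and at 0.229, 0.451 and 0.302 CPM in Prmt3LKO tumors (-1.54 ± 0.65 SE, -0.73 without Prmt3f/f tumor 7). Its receptor Xcr1, which marks cross-presenting dendritic cells, was at 1.25, 1.03 and 0.879 CPM and at 0.514, 0.135 and 0.452 CPM (-1.52 ± 0.54 SE). Ccl22, a dendritic cell and macrophage ligand that attracts regulatory T cells through Ccr4, was at 3.19, 2.19 and 1.34 CPM and at 0.114, 0.857 and 0.854 CPM (-1.84 ± 0.65 SE). None of the 3 had a group overlap, and all were low in every tumor, with edgeR adjusted p of 0.755, 0.684 and 0.684. Each reached the filter level in every Prmt3f/f tumor, but Xcl1 in no Prmt3LKO tumor, Xcr1 in 1 and Ccl22 in 2. All 3 therefore depended on their Prmt3f/f level to be tested, and their direction was partly fixed by the filter. Exons of Xcl1 overlap those of Gm20743 over 18.7% of their bases, and its count is uncertain for that reason.

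Of the ligands made by stroma and endothelium, Cxcl12 and Cxcl14 overlapped between the groups and Cxcl16 did not. Cxcl12, the stromal ligand of Cxcr4 and Ackr3 that retains leukocytes in tissue, was at 60.6, 115 and 167 CPM in Prmt3f/f tumors and at 128, 64.2 and 146 CPM in Prmt3LKO tumors. Each group spanned more than 2-fold, and the fold change was -0.02 ± 0.41 SE, 0.04 with limma-voom. Cxcl14, an epithelial and stromal chemokine, was at 30.8, 7.28 and 15.5 CPM and at 12.3, 7.94 and 9.95 CPM, the largest value by far being that of Prmt3f/f tumor 7 (-0.83 ± 0.47 SE, -0.19 without it). Cxcl16, a membrane-tethered ligand found on macrophages and endothelium, was at 26.2, 23.0 and 20.7 CPM in Prmt3f/f tumors and at 19.5, 16.6 and 18.1 CPM in Prmt3LKO tumors. Its difference was small with no overlap (1.29-fold lower, log2 fold change -0.36 ± 0.15 SE; edgeR adjusted p = 0.745), and 14.2% of its transcript windows also occur in Zmynd15. Its receptor Cxcr6, on tissue-resident lymphocytes, was at 3.23, 2.01 and 2.04 CPM in Prmt3f/f tumors and at 0.343, 1.76 and 5.23 CPM in Prmt3LKO tumors. The lowest and the highest value of Cxcr6 were both in Prmt3LKO tumors, and the fold change was 0.02 ± 0.76 SE, -1.17 without Prmt3LKO tumor 94 and -0.0023 with library-size scaling. Cx3cl1 (-0.55 ± 0.41 SE), Ccl20 (-0.65 ± 0.81 SE), Cxcl17 (-1.44 ± 0.66 SE), Ccl25 (-0.19 ± 0.43 SE) and Ccl27a (-0.21 ± 0.26 SE) overlapped between the groups. Ccl27a shares 26.5% of its windows with near-identical genes and is uncertain.

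Chemokines that organise lymphoid tissue were low or listed at 0. Cxcl13, the B cell attractant, was at 1.66, 5.09 and 1.58 CPM in Prmt3f/f tumors and at 0.800, 1.71 and 1.66 CPM in Prmt3LKO tumors, with Prmt3f/f tumor 66 apart from all others (-0.98 ± 0.55 SE, -0.21 without that tumor). Its receptor Cxcr5 was at -0.75 ± 0.61 SE and Ccr7, the receptor that brings dendritic and naive T cells to lymph nodes, at -0.69 ± 0.51 SE, both with overlap. The Ccr7 ligands Ccl19, Ccl21a, Ccl21b and Ccl21c were listed at 0 in all 6 tumors. In GENCODE M21 transcripts 39.3% of the 100-base windows of Ccl19, 50.3% of Ccl21a and 100% of Ccl21b also occur in other genes, so these zeros are uncertain and are not read as absence.

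Among the remaining receptors, Cxcr4, the Cxcl12 receptor of most leukocytes, had the highest level per length of any receptor, with a mean of 2.98 FPKM over the 6 tumors (log2 fold change -0.41 ± 0.27 SE). Cx3cr1, a receptor of monocytes and macrophages, was at 11.0, 9.61 and 3.45 CPM in Prmt3f/f tumors and at 4.11, 2.93 and 6.79 CPM in Prmt3LKO tumors, with overlap (-0.80 ± 0.47 SE). Ccr9 was at 1.11, 1.26 and 0.844 CPM and at 0.171, 0.812 and 0.101 CPM, lower in each Prmt3LKO tumor, tumor 93 only just (-1.51 ± 0.71 SE, -2.93 without tumor 93; edgeR adjusted p = 0.774). Other annotated genes overlap 21.5% of its exon bases, which leaves this low count uncertain. It reached the filter level in every Prmt3f/f tumor and in 1 Prmt3LKO tumor, so it depended on its Prmt3f/f level to be tested.

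No atypical receptor was lower in every Prmt3LKO tumor. Ackr2, which scavenges inflammatory CC chemokines, was at 3.32, 3.27 and 3.55 CPM in Prmt3f/f tumors and at 4.34, 3.92 and 4.22 CPM in Prmt3LKO tumors. It was the member with every Prmt3LKO tumor above every Prmt3f/f tumor, by a small amount (1.23-fold higher, log2 fold change 0.30 ± 0.21 SE; edgeR adjusted p = 0.89). Ackr1, which binds many chemokines on endothelium of venules and on red cells, was at 1.94, 0.420 and 0.281 CPM in Prmt3f/f tumors and at 1.54, 1.98 and 1.46 CPM in Prmt3LKO tumors. Prmt3f/f tumor 7 carried the Prmt3LKO level and the other Prmt3f/f tumors did not (0.93 ± 0.69 SE, 2.24 without tumor 7). Ackr1 reached the filter level in all 3 Prmt3LKO tumors and in 1 Prmt3f/f tumor, so it depended on its Prmt3LKO level to be tested. Exons of Cadm3 overlap 25.7% of its exon bases, which leaves its count uncertain. Ackr3, the Cxcl12 scavenger, was at -0.23 ± 0.29 SE.

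FPKM values divide by a length, and the lengths used were not given, so they compare levels between genes only roughly. In Prmt3f/f tumor 7 Cxcl9 was at 92 CPM and 29.1 FPKM with 3016 exon bases. Cxcl10 was at 24.9 CPM and 5.38 FPKM with 2252 exon bases. The length that divided Cxcl10 was thus longer than its annotated exons, and FPKM understates the level of such genes. Ccl9 held a mean of 32.2% of the summed ligand FPKM (20.9% to 46.1% over the tumors), Cxcl9 18.0% (8.2% to 33.4%), Cxcl1 12.0%, Cxcl12 6.63% and Cxcl14 5.21%. Ligand totals were 209, 145 and 173 FPKM in Prmt3f/f tumors and 94.3, 120 and 116 FPKM in Prmt3LKO tumors, a mean of 175.6 ± 31.7 (SD, n = 3) against 110.0 ± 13.8 (SD, n = 3). The groups did not overlap. Without Cxcl9 the totals were 179, 111 and 115 FPKM against 86.2, 95.7 and 106 FPKM. Receptor totals were far smaller, 21.3, 15.9 and 12.0 FPKM against 8.37, 12.9 and 14.2 FPKM, and overlapped. Only 3 tested members, all ligands, had a mean of at least 10 FPKM, and 20 of the 41 were under 1.

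**Figure D3:**
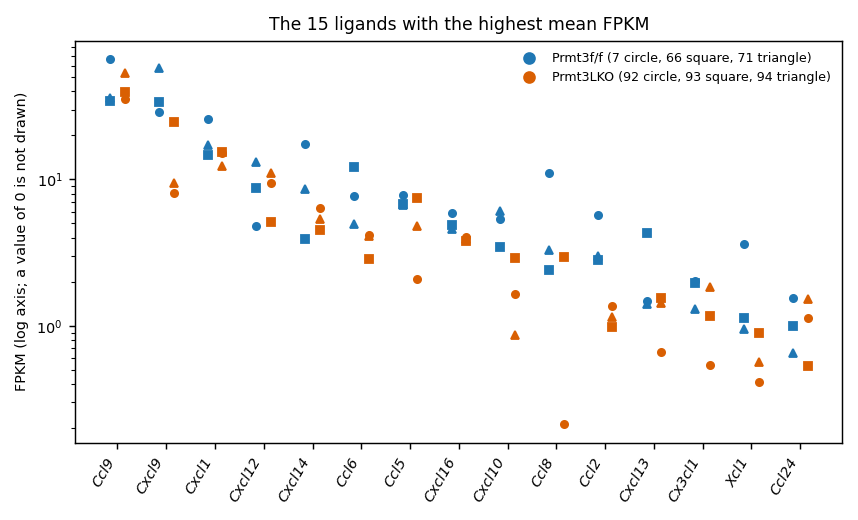
FPKM of the 15 ligands with the highest mean over the 6 tumors, on a log axis, each point a tumor (7, 66 and 71 in blue; 92, 93 and 94 in orange). Ccl9 and Cxcl12 interleave between the groups, while Cxcl9, Ccl6, Cxcl16, Cxcl10 and Ccl2 are lower in every Prmt3LKO tumor.

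Ligands were also split by their usual source, by textbook knowledge and not by a measurement in these tumors. Cxcl16, also found on macrophages, was placed with parenchyma and stroma, and the tested ligand Cxcl17 was placed in no list. Of 8 tested ligands made by hepatocytes or other liver parenchyma and stroma (Cxcl1, Cxcl5, Cxcl12, Cxcl14, Cxcl16, Cx3cl1, Ccl25 and Ccl27a), 0 were lower by 2-fold at an unadjusted p under 0.05, 1 (Cxcl16) did not overlap, and the median log2 fold change was -0.38. Of 10 tested leukocyte ligands, 4 (Ccl6, Ccl22, Cxcl2 and Xcl1) were lower by that rule and the median was -1.05. Of 6 ligands made by both, 3 (Ccl2, Cxcl9 and Cxcl10) were lower and the median was -1.21. Cxcl2 and Xcl1 were tested only through the group in which they were high. The lists were therefore also read over members with a mean of at least 1 CPM. There 2 of 6 leukocyte ligands (Ccl6 and Ccl22) and 0 of 7 ligands of parenchyma and stroma were lower. Of those made by both, 3 of 5 were lower, and the share over such genes was 1.5%. Ccl22 was at 0.114, 0.857 and 0.854 CPM in Prmt3LKO tumors, so it too reached that mean only through its Prmt3f/f level. The share over all genes tested was 1.77% and their median 0.00, and the difference between the source lists was not tested.

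Ligands and receptors were paired by known binding. Both genes were tested in 21 of the 34 pairs listed, which share members with each other, and both were below 0 in 19 of them, against 36 of 41 single members. In 4 pairs both genes were lower in every Prmt3LKO tumor, namely Cxcl9 and Cxcl10 with Cxcr3, Ccl2 with Ccr2, and Xcl1 with Xcr1. Both genes had an unadjusted p under 0.05 in edgeR's test in 2 of these, Ccl2 with Ccr2 and Xcl1 with Xcr1. Xcl1 and Xcr1 passed the filter through the Prmt3f/f tumors, so the second of these pairs was partly fixed by the filter. In 12 pairs neither gene separated the groups. Ccl24 with Ccr3 was the pair with both fold changes above 0, and Cxcl16 with Cxcr6 the pair with opposite signs, each holding a gene whose sign turned with the processing.

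**Figure D4:**
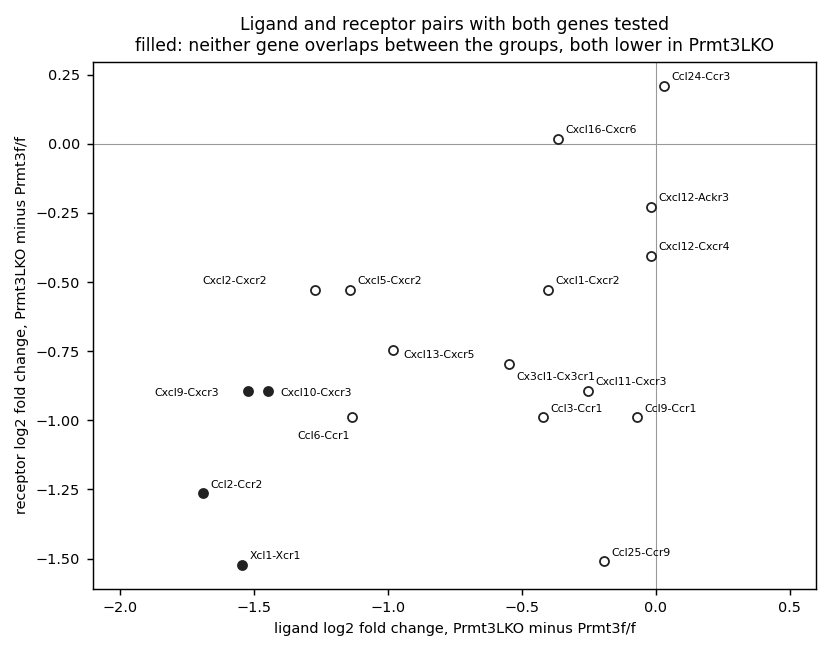
Log2 fold change of the ligand (x axis) and of its receptor (y axis), Prmt3LKO minus Prmt3f/f, for 18 of the 21 pairs with both genes tested; pairs that share a gene share a coordinate. The 4 filled pairs, in which both genes are lower in every Prmt3LKO tumor, lie at the lower left, 16 of the 18 pairs drawn have both values below 0, and 9 separate the groups in neither gene.

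Of the genes that act below chemokine receptors and are no members, some were lower as well. Of 42 tested signalling genes, 16 were lower and 0 higher at an unadjusted p under 0.05 at any fold in edgeR's test. By that rule 4.37% of all genes were lower and 2.2% higher. In this list 17 genes were lower in every Prmt3LKO tumor and 1 was higher in every one, against 6.6% and 5.56% of all genes. The median log2 fold change of the list was -0.28. Among those with the smallest p were the leukocyte kinase Fgr (-0.88 ± 0.18 SE), the GTPase Rac2 (-0.85 ± 0.20 SE) and the oxidase subunit Ncf1 (-0.90 ± 0.23 SE), all of blood cells. Of 11 tested chemokine-like or chemokine-processing genes, 2 were lower at that p, Cd74 (-0.76 ± 0.22 SE), the receptor for MIF, and the atypical receptor-like Ccrl2 (-0.86 ± 0.29 SE), and 1 was higher, Mif (0.49 ± 0.16 SE). Mif was at 71.1, 69.6 and 83.8 CPM in Prmt3f/f tumors and at 91.9, 108 and 116 CPM in Prmt3LKO tumors. Of 12 tested cytokines and factors that induce chemokines, 0 had an unadjusted p under 0.05 in edgeR's test. Ifng was too low to test. No gene of these lists passed adjustment.

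Many leukocyte marker genes had lower values in Prmt3LKO tumors, although none passed adjustment over all genes (smallest adjusted p 0.592 in edgeR's test). In these bulk tumors fewer cells of a type and less RNA per cell cannot be told apart. Marker counts below are at an unadjusted p under 0.05 at any fold in edgeR's test. By that rule 4.37% of all genes tested were lower and 2.2% higher. Summed over 11 pan-leukocyte markers the level was 323 to 352 CPM in Prmt3f/f tumors and 185 to 245 CPM in Prmt3LKO tumors, and 9 of the 11 had an unadjusted p under 0.05 and were lower, led by Plek (-1.07 ± 0.18 SE), with Ptprc at -0.81 ± 0.15 SE. T cell markers summed to 33.8 to 41.1 CPM against 7.66 to 22.9 CPM, with 7 of 11 lower at that p, Cd8a at -1.46 ± 0.32 SE and Cd3e at -1.06 ± 0.68 SE. Neutrophil and recruited monocyte markers summed to 19.4 to 33.9 CPM against 8.34 to 10.7 CPM, with 6 of 6 tested markers lower, Ly6c2 at -1.64 ± 0.32 SE, while Ly6g, the defining neutrophil marker, had at most 3 counts in each tumor. Dendritic cell markers summed to 27.7 to 35.2 CPM against 12.7 to 22.2 CPM, with 3 of 7 lower and Flt3 at -0.81 ± 0.48 SE. Macrophage markers summed to 711 to 850 CPM against 493 to 710 CPM, with 5 of 11 lower and Adgre1 at -0.48 ± 0.19 SE, natural killer cell markers with 1 of 6 lower and B cell markers with 0 of 6. Hepatocyte, endothelial and stellate cell marker sums overlapped between the groups with 0 of 10, 0 of 8 and 0 of 10 markers under that p, and the hepatocyte markers, Alb foremost, were the most abundant of all lists in each tumor. Cholangiocyte markers summed to 4103 CPM in Prmt3f/f tumor 7 and to 206 to 1016 CPM in the other tumors, nearly all of it Spp1. The part of leukocyte content in the chemokine differences was not tested.

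**Figure D5:**
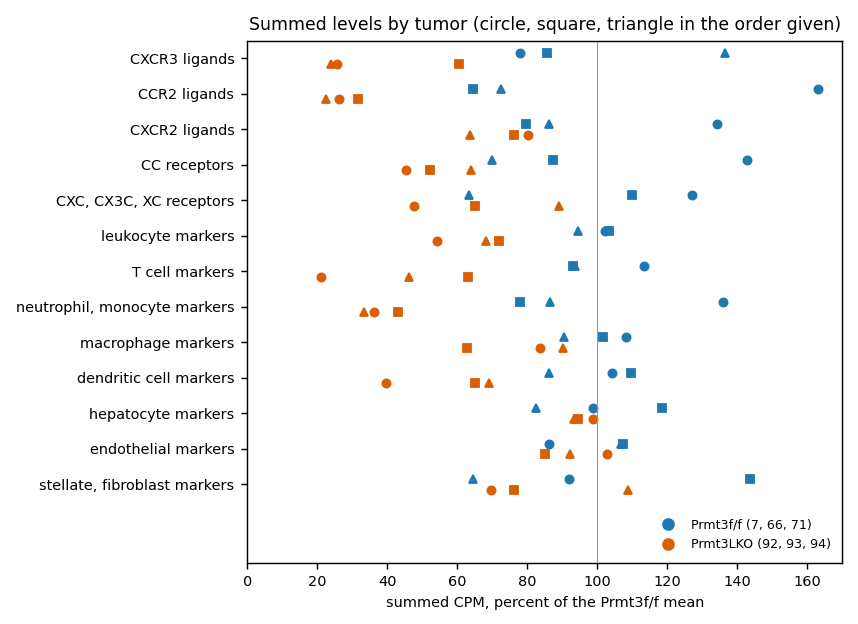
Summed CPM of chemokine groups and marker lists in each tumor, as a percent of the Prmt3f/f mean; circles, squares and triangles are tumors 7, 66 and 71 in blue and 92, 93 and 94 in orange. CXCR3 ligands sit at 24.1% to 60.6% and CCR2 ligands at 22.6% to 31.6% in Prmt3LKO tumors, leukocyte markers at 54.2% to 72.0%, and hepatocyte markers at 93.2% to 98.8%.

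The tumors of a group were not alike. Of the 41 tested members, 20 were highest in Prmt3f/f tumor 7, 11 in Prmt3f/f tumor 66 and 3 in Prmt3f/f tumor 71, while 16 were lowest in Prmt3LKO tumor 92 and 10 each in Prmt3LKO tumors 93 and 94. Prmt3LKO tumor 93 held the highest Prmt3LKO values of Cxcl9, Cxcl10 and Ccl5, and Prmt3LKO tumor 94 those of Cxcr6 and Cxcr3. Ccl2, Cxcl9 and Cxcl10 were the 3 members that were lower by 2-fold at an unadjusted p under 0.05 in edgeR's fit of all tumors and in each of the 6 fits without 1 tumor. The share of all genes that met the same rule was not counted, so this describes the 3 members only.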

How the data were processed

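The deposited table held, for each of 6 tumors, raw gene counts and FPKM values made by the authors. The submitters' processing notes name bcl2fastq 2.19, HISAT2 2.0.4 and StringTie 1.3.0 with GRCm38; the counting tool, its use of strand and its treatment of reads with several matches were not given in the sources used here. FPKM served only for a rough comparison of levels between genes, since the lengths used were not given. A further 1013830 blank rows in the deposited table were left out.

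Counts were analysed in R 4.3.3 with edgeR 4.0.16: filterByExpr, TMM scaling and the quasi-likelihood test with Benjamini-Hochberg adjustment over all 13892 genes tested, all 6 tumors in 1 fit with genotype as the factor. A call needed an adjusted p under 0.05 and at least a 2-fold difference. SE is the size of the log2 fold change divided by the square root of F. CPM are TMM-scaled. An exact two-sided permutation test of 1 gene over the 6 tumors cannot go below p = 0.1, and separation of all tumors corresponds to that p. DESeq2 1.42.0, limma 3.58.1 (voom, and log2(FPKM + 1), which understates the change of low genes), edgeR's exact test, library-size scaling, other filters and leaving out each tumor in turn were alternatives. The scripts were tested on simulated counts. Every pair of libraries differed beyond sampling noise, so none was counted as a duplicate.

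The members, role lists and marker lists were chosen with earlier results of these data known, so counts over them are descriptions. Every member could be named, with values in every tumor for those that did not overlap, had an unadjusted p under 0.05 or were among the 10 highest by FPKM; some others, chosen after their values were seen, were given as well. From pathway and marker lists at most 4 genes were named. The 3-count floor covers counting error only, while SE and SD include the spread between tumors. Transcript windows and exon overlaps were taken from GENCODE M21 on GRCm38. A few tested genes count in the totals but are not reported here by name.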

Additional observations from a re-analysis of the deposited data

How the results depend on the processing

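The median over all genes stayed between -0.02 and 0.01 on the log2 scale in every setting. The count of called members was 1 (Ccl2) with DESeq2 and 1 with edgeR's exact test, and 0 in the other alternatives and in every fit without 1 tumor. The count of members lower at an unadjusted p ranged from 5 to 13 over the fits without 1 tumor (5 without Prmt3f/f tumor 7) and the count higher from 0 to 1. Shares over all genes were not counted for those fits. The median log2 fold change of tested members ranged from -0.95 (without Prmt3LKO tumor 93) to -0.49 (without Prmt3f/f tumor 7) over the fits without 1 tumor. It ranged from -0.83 with no filter to -0.57 at a mean of at least 1 CPM. A fit that leaves 2 tumors in a group takes the spread from all genes and both groups.

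Of 41 tested members, 33 kept the sign of their log2 fold change in every alternative that gave them a value (13, or 12 for members under a mean of 1 CPM) and 8 turned in at least 1; each of the 8 overlapped between the groups, and the cause of a turn was not tested beyond the tumor named. Over the fits without 1 tumor Ccl24 ranged from -0.32 to 0.38, Ccl25 from -0.52 to 0.12, Ccl9 from -0.27 to 0.27, Ccr3 from -0.070 to 0.64, Cxcl11 from -0.52 to 0.015, Cxcl12 from -0.33 to 0.36, Cxcr2 from -0.97 to 0.51 and Cxcr6 from -1.17 to 0.53. With limma-voom Ccl24 was -0.011, Ccr3 -0.040, Cxcl12 0.041 and Cxcr6 -0.57. With library-size scaling Ccl24 was -0.0062 and Cxcr6 -0.0023, and on the log2(FPKM + 1) scale Ccl24 was -0.013 and Cxcr6 -0.15. No paired analysis was possible because the groups share no replicate number. Depth limits the members with few counts, of which 14 could not be tested and 14 had none.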

Other observations

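Several members too low to test had values that were uneven between tumors, given here as raw counts in Prmt3f/f tumors 7, 66 and 71 and then in Prmt3LKO tumors 92, 93 and 94. Ccl7, another ligand of the monocyte receptor Ccr2, was at 33, 5 and 19 and at 1, 3 and 4 counts. Ccl12, a further ligand of Ccr2, was at 10, 4 and 4 and at 0, 3 and 2 counts. Every Prmt3LKO tumor lay below every Prmt3f/f tumor for both genes. For Ccl12 this rested on 0.141 CPM in Prmt3f/f tumor 71 against 0.135 CPM in Prmt3LKO tumor 93. All its Prmt3LKO counts were at or under the 3-count floor. Ccr8, a receptor of regulatory T cells, was at 8, 12 and 5 and at 0, 1 and 2 counts, also without overlap. Cxcl3, a neutrophil attractant beside Cxcl1 and Cxcl2, was at 70 counts in Prmt3f/f tumor 7 and at 0 to 5 in the other tumors, and Ccl17, a ligand of Ccr4, was at 19 counts in the same tumor and at 0 to 2 in the others. Ackr4, a scavenger of Ccl19 and Ccl21, was at 24, 13 and 8 and at 5, 3 and 7 counts. Ccr4, Ccr6, Ccr10, Ccl1, Ccl11 and Ccl28 were at 9 counts or fewer in each tumor, and Cxcr1 and Ccr1l1 were among the 3 members with at most 3 counts in every tumor. No test was made of these genes in the main fit. The share of all genes too low to test whose groups did not overlap was not counted.

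The 14 members with no count were the rows of Ccl19, Ccl21a, Ccl21b, Ccl21c, Ccl27b, 2 scaffold rows of Ccl27a, the pseudogenes Ccl19-ps1 and Ccl19-ps3, Ccl26 and Cxcl15. Of these rows, 6 lie on scaffolds. Ccl26 and Cxcl15 were the 2 with a transcript in the annotation and no window shared with another gene.

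Many chemokine genes lie in clusters. The counts here are over whole chromosomes, and include genes far from the others, such as Cxcl16, Ccl24 and Cxcr5. Over all genes tested 6.6% were lower in every Prmt3LKO tumor. The 8 tested ligands on chromosome 11, among them Ccl2, Ccl6 and Ccl9, all had a log2 fold change below 0, and 3 of them, Cxcl16, Ccl2 and Ccl6, did not overlap between the groups. Of the 8 tested ligands on chromosome 5, 7 were below 0 and 3, Cxcl9, Cxcl10 and Cxcl2, did not overlap, the last of which was tested only through its Prmt3f/f level. Of the 10 tested receptors on chromosome 9, 7 were below 0 and 3, Ccr2, Ccr9 and Xcr1, did not overlap in the lower direction. Ccr9 and Xcr1 reached the filter level in every Prmt3f/f tumor and in 1 Prmt3LKO tumor. Both therefore depended on their Prmt3f/f level to be tested.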
